A study of Mus with 6 samples.

Results

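MicroRNA (miRNA) host genes are long non-coding RNAs whose transcripts or loci carry miRNA hairpins. Their members here were all entries of the authors' named RNA table whose symbol starts with Mir and ends with hg, and 2 of 2282 entries met that rule: Mir155hg and Mir99ahg. The tissue was the right substantia nigra pars compacta, where dopaminergic neurons of the midbrain lie, taken from mice overexpressing human alpha-synuclein with the A53T substitution. One group of 3 samples came from mice given AVE0991, an agonist of the Mas receptor, at 10 mg/kg by daily intraperitoneal injection for 30 days. The other group of 3, called the model group, came from mice of that genotype given 0.9% saline on the same schedule. All 6 samples carried the transgene, so no comparison with mice lacking it was possible. The labels name no promoter and no age for these mice. They do not say that samples came from separate animals either, so the p-values below rest on a spread among libraries that may be technical.

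A miRNA gene is first copied into a long primary transcript, and enzymes in the nucleus cut the hairpin out of it before the mature miRNA is made. A host gene transcript is therefore a readout of the primary RNA and its spliced remains, not of the mature miRNA. Mir155hg, also called Bic, gives rise to miR-155, a miRNA induced in activated lymphocytes, macrophages and microglia. Mir99ahg is the host gene of a cluster of miR-99a, let-7c and miR-125b, of which let-7c and miR-125b are known for promoting neuronal differentiation. In bulk tissue, fewer cells of a type and less RNA per cell cannot be told apart.

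Levels below are normalized counts, that is, the whole count of a library recovered from the deposited table and divided by that library's size factor. The libraries are called a, b and c within each group, by rising size factor, and could not be matched to the numbered samples. The recovered counts summed to between 1518856 and 1729475 in the AVE0991 libraries and between 1949167 and 2099520 in the model libraries. These sums leave out the 8 most abundant names, above a mean of 50000, and 4 names with several solutions, so they are not totals of the named RNAs. One library stood apart from its group: on the first principal component, which held 51.3% of the variance, model library a lay at 7.32, between the AVE0991 libraries (-21.5 to -16.1) and the other model libraries (23.4 and 24.3). None of 24 protein-coding markers of neurons, glia, blood and vessel cells was among the named RNAs, so the labelled tissue could not be checked against them.

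Neither host gene passed the test between AVE0991 and model samples. The test was edgeR's quasi-likelihood test with Benjamini-Hochberg adjustment over all 1863 names tested, and a call was an adjusted p under 0.05. Of all names tested, 16.1% were called (7.78% higher and 8.32% lower with AVE0991), and 30.9% had an unadjusted p under 0.05. The host genes gave 0 of 2 calls by edgeR, 0 of 2 at an unadjusted p under 0.05, and 0 of 2 by DESeq2, by limma-voom and by the authors' deposited statistic.

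Mir155hg had few counts in these libraries. Its normalized counts were 43.4, 27.5 and 30.2 across AVE0991 libraries a to c, against 41.6, 60.0 and 81.4 across model libraries a to c. The groups overlapped, because the lowest model library lay just under the highest AVE0991 library. That lowest model library is library a, the one that lay between the groups over all names. The group values were 33.7 ± 8.50 in AVE0991 samples, against 61.0 ± 19.95 in model samples (mean ± SD, n = 3 each). The log2 fold change, AVE0991 over model, was -0.80 ± 0.41 (SE; adjusted p = 0.225, edgeR quasi-likelihood test), with a 95% interval from -1.73 to 0.13. That interval holds no change as well as a fall of more than 2-fold, so a change of that size was not resolved with 3 samples a group.

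The interval of Mir155hg was wider than counting error alone would give. The AVE0991 libraries held 40, 27 and 30 of its counts, 97 in all, and the model libraries held 45, 67 and 96, 208 in all. The ratio of the summed counts after scaling was 0.544, with an exact 95% Poisson interval from 0.423 to 0.696. That interval covers counting error only and lies below 1, whereas the interval that includes the spread between samples does not. Without model library a the log2 fold change was -0.98 (adjusted p = 0.142, edgeR), and without model library c, the library with the most Mir155hg, it was -0.52 (adjusted p = 0.555, edgeR). Over the 6 fits with 1 library left out, the adjusted p ran from 0.142 to 0.555, and the log2 fold change stayed below 0 in each.

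**Figure D1:**
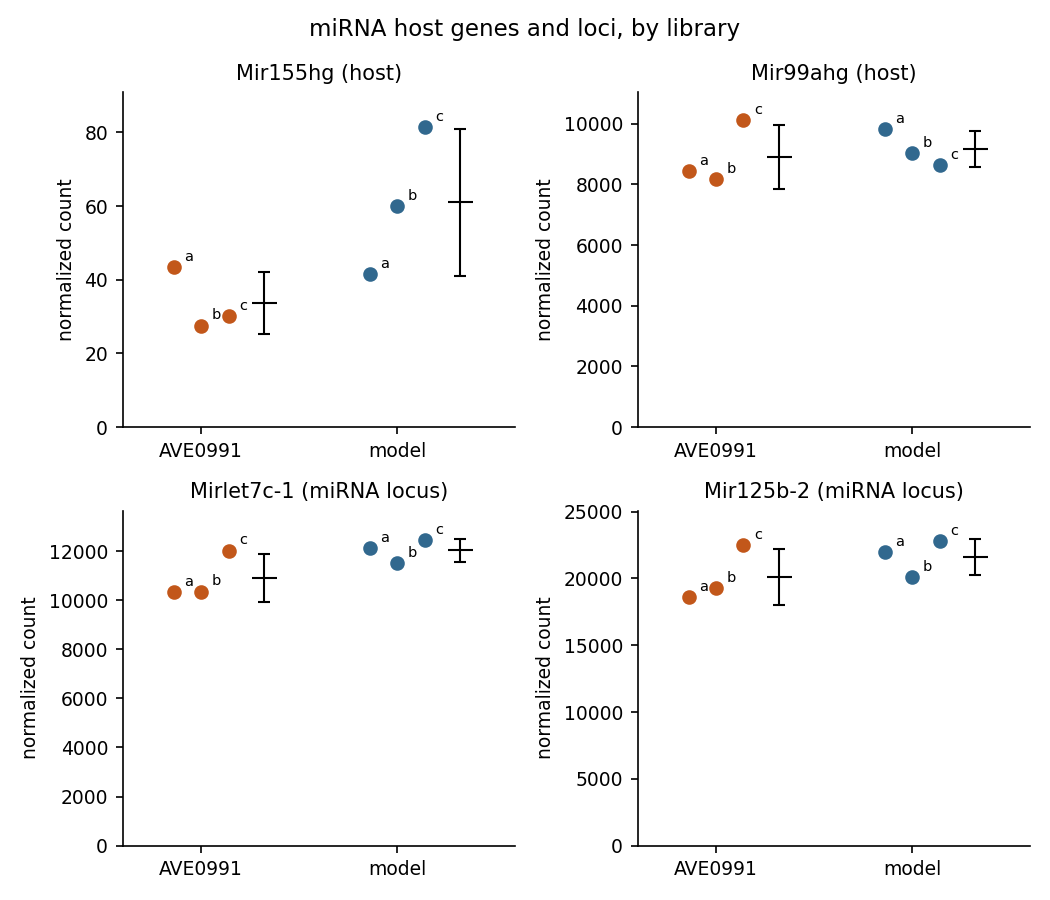
Normalized counts (y axis, from 0) of the host genes Mir155hg and Mir99ahg and of the miRNA loci Mirlet7c-1 and Mir125b-2 in each library, with AVE0991 and model samples side by side. Points are libraries a, b and c, and bars are the mean ± SD of 3 libraries. The groups overlap in all 4 panels, and Mir155hg ranges from 27.5 to 81.4 while Mir99ahg ranges from 8178 to 10116.

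Mir99ahg was well counted in every library and close to level between the groups. Its normalized counts were 8431, 8178 and 10116 across AVE0991 libraries a to c, against 9821, 9039 and 8634 across model libraries a to c. The highest value of all 6 was an AVE0991 library and the next highest a model library, so the groups overlapped. The group values were 8908 ± 1053 in AVE0991 samples, against 9165 ± 604 in model samples (mean ± SD, n = 3 each). The log2 fold change was 0.01 ± 0.13 (SE; adjusted p = 0.970, edgeR quasi-likelihood test), with a 95% interval from -0.28 to 0.30, a fold of 0.826 to 1.23. A difference of 2-fold in either direction lies outside that interval. Its sign was not stable: the authors' deposited table gives a log2 fold change of -0.041, and leaving out AVE0991 library c gave -0.062.

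The authors' deposited table tested the same comparison with a statistic for each name. For Mir155hg the authors' deposited table gives a statistic of -2.18 on 2.704 degrees of freedom and a p of 0.127. For Mir99ahg the authors' deposited table gives a statistic of -0.37 on 3.19 degrees of freedom and a p of 0.738. Adjusted here over all names with a value in the authors' deposited table, these p-values became 0.374 and 0.852. Over all names the authors' deposited statistic gave 0 calls once adjusted, against 424 names at an unadjusted p under 0.05, so each call named below by edgeR is lost with it.

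In RefSeq's annotation (GRCm38.p6) both host genes lie on chromosome 16. The span of Mir155hg holds the hairpin gene Mir155, which was not analysed here. The span of Mir99ahg holds no miRNA gene in that annotation, but the next 3 genes after its end are Mir99a, Mirlet7c-1 and Mir125b-2, the cluster it is named for. Of these, Mirlet7c-1 and Mir125b-2 were among the named RNAs and could be set beside the host. The libraries were made from total RNA, so counts at these loci need not be mature miRNA. Their mature sequences also occur at other let-7c and miR-125b genes, and reads confined to such a stretch could have been counted at any of them. The strand setting of the counting is not known here, so reads of a locus and of an RNA that overlaps it on either strand cannot be told apart.

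The cluster loci were near level as well. Mirlet7c-1 had normalized counts of 10322, 10351 and 12020 across AVE0991 libraries a to c, against 12127, 11506 and 12457 across model libraries a to c. AVE0991 library c was the only library of its group that reached the model range. The log2 fold change was -0.09 ± 0.11 (SE; adjusted p = 0.634, edgeR), with a 95% interval from -0.35 to 0.17. Mir125b-2 had normalized counts of 18602, 19269 and 22484 across AVE0991 libraries a to c, against 21946, 20113 and 22789 across model libraries a to c. Here too AVE0991 library c alone lay within the model range. The log2 fold change was -0.05 ± 0.11 (SE; adjusted p = 0.793, edgeR), with a 95% interval from -0.31 to 0.20. Of these 2 loci 0 were called by edgeR, 0 had an unadjusted p under 0.05, and 0 were called by DESeq2, limma-voom or the authors' deposited statistic. Groups that do not overlap were seen for 39.0% of the names tested, and for none of Mir155hg, Mir99ahg, Mirlet7c-1 and Mir125b-2.

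Within the AVE0991 group, library c was the highest for Mir99ahg, Mirlet7c-1 and Mir125b-2 alike. Within the model group, library c was the lowest for Mir99ahg and the highest for Mirlet7c-1 and Mir125b-2. The ratio of Mirlet7c-1 to Mir99ahg counts, which does not depend on library scaling, was 1.22, 1.27 and 1.19 across AVE0991 libraries a to c, against 1.24, 1.27 and 1.44 across model libraries a to c. The ratio of Mir125b-2 to Mir99ahg was 2.21, 2.36 and 2.22 across AVE0991 libraries a to c, against 2.23, 2.23 and 2.64 across model libraries a to c. Model library c thus stood above the other 5 libraries in the ratio of each locus to the host. The ratio of Mir125b-2 to Mirlet7c-1 was steadier, at 1.80, 1.86 and 1.87 across AVE0991 libraries a to c, against 1.81, 1.75 and 1.83 across model libraries a to c. Exact permutation tests over libraries, two-sided, gave p = 0.2 for Mirlet7c-1 over Mir99ahg, 0.5 for Mir125b-2 over Mir99ahg and 0.3 for Mir125b-2 over Mirlet7c-1. Adjusted over the 3 ratios these were 0.45, 0.5 and 0.45, and the smallest p that 3 samples against 3 allow is 0.1. The values are ratios of counts that are not set per length, so they do not compare how abundant the RNAs were.

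**Figure D2:**
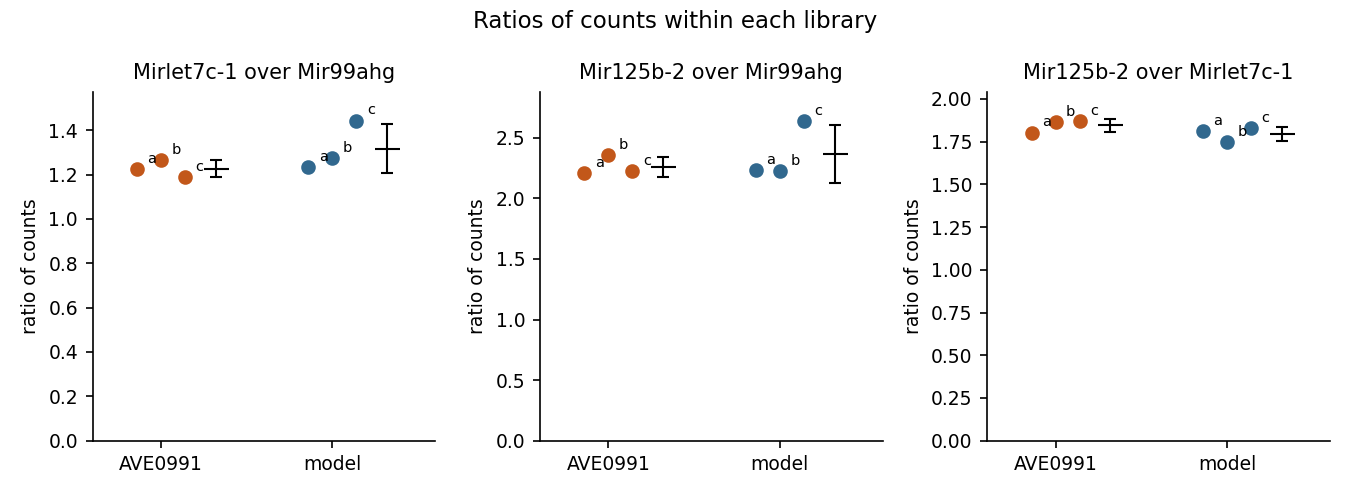
Ratio of counts within each library (y axis, from 0) for Mirlet7c-1 over Mir99ahg, Mir125b-2 over Mir99ahg and Mir125b-2 over Mirlet7c-1, with AVE0991 and model samples side by side. Points are libraries a, b and c, and bars are the mean ± SD of 3 libraries. Model library c is the highest in both ratios to Mir99ahg, at 1.44 and 2.64.

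Other let-7 loci of the table had log2 fold changes further below 0 than that of Mirlet7c-1, and the difference between loci was not tested. These loci were chosen after their values were seen. Mirlet7i fell, with normalized counts of 2366, 2916 and 2622 across AVE0991 libraries a to c, against 3361, 4485 and 4886 across model libraries a to c. Its log2 fold change was -0.64 ± 0.17 (SE; adjusted p = 0.0379, edgeR). That call was lost in 5 of the 6 fits with 1 library left out, the exception being the fit without model library a. Calls over all names moved the same way: 419 without model library a, against 300 with all libraries and 104 to 160 in the other 5 fits. Holding only in that fit is therefore not particular to Mirlet7i or to the RNAs below. Mirlet7d and Mirlet7b had log2 fold changes of -0.60 ± 0.18 and -1.83 ± 0.58 (SE; adjusted p = 0.0561 and 0.0661, edgeR) and did not pass. Mirlet7d passed in 4 of 14 alternatives, with DESeq2 (adjusted p = 0.0172), limma-voom (0.0396), a robust edgeR fit (0.0470) and without model library a (0.0215). Mirlet7b passed in 2 of 14, with DESeq2 (adjusted p = 0.0432) and with a stricter filter on low counts in edgeR (0.0465). Mirlet7a-1, with 4 counts in the AVE0991 libraries and 17 in the model libraries, was too scarce to test.

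RefSeq gives 17 genes a host name of this form, as symbol or synonym. Besides Mir155hg and Mir99ahg, 1 of them was among the named RNAs, under its current symbol Morrbid, an RNA known in mice for controlling the lifespan of myeloid cells. Morrbid had normalized counts of 153, 93.9 and 96.8 across AVE0991 libraries a to c, against 127, 139 and 76.3 across model libraries a to c. The groups overlapped, with the lowest value in a model library and the highest in an AVE0991 library. Its log2 fold change was 0.07 ± 0.32 (SE; adjusted p = 0.912, edgeR), and it turned to -0.21 without AVE0991 library a and to -0.14 without model library c.

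For 7 of the other hosts the table held no host transcript but did hold 9 miRNA loci inside the host's RefSeq span, of which 7 were tested. Spans were compared by position alone, so a locus may lie on the strand opposite to its host. Of these 7 loci, 2 fell (Mir133a-2 and Mir670), none rose and 5 did not pass. Their median log2 fold change was -1.07, against -0.02 over all names. That median is the value of Mir3078 (SE 0.78), and Mir670 and Mir129b share 1 host span. Over all names tested, 16.1% were called in either direction, and 8.32% fell. The 7 loci were chosen by annotation after earlier results of these data were known.

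Mir133a-2 lies in Mir1a-1hg, the host of miR-1 and miR-133a, miRNAs best known from skeletal and heart muscle. Its normalized counts were 47.8, 108 and 86.7 across AVE0991 libraries a to c, against 302, 252 and 210 across model libraries a to c. The lowest model library was above every AVE0991 library. Between the groups, the log2 fold change was -1.60 ± 0.31 (SE; adjusted p = 0.0118, edgeR), and the call held in each of the 6 fits with 1 library left out.

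Mir670 and Mir129b both lie in Mir670hg, whose span in RefSeq also holds a gene of the neuronal miRNA miR-129. Mir670 had normalized counts of 83.6, 140 and 44.4 across AVE0991 libraries a to c, against 167, 287 and 324 across model libraries a to c. The groups did not overlap, and the spread within each was wide. The log2 fold change was -1.49 ± 0.42 (SE; adjusted p = 0.0447, edgeR), and the call was lost without AVE0991 library a (adjusted p = 0.130, edgeR), AVE0991 library c (0.0988), model library b (0.128) or model library c (0.155). Mir129b, in the same span, had 1232, 1652 and 2477 across AVE0991 libraries a to c, against 2207, 2202 and 3606 across model libraries a to c. Its groups overlapped, and its log2 fold change of -0.54 ± 0.28 (SE; adjusted p = 0.234, edgeR) did not pass.

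The other 4 tested loci inside host genes did not pass, and Mir216b and Mir216c, inside Mir217hg, were too scarce to test. Mirlet7b, inside Lncppara, a gene with the synonym Mirlet7bhg, had 4.34, 10.2 and 12.1 normalized counts across AVE0991 libraries a to c, against 30.5, 30.4 and 38.2 across model libraries a to c. Its groups did not overlap, with only 4 to 12 counts in each AVE0991 library. Mir3078, inside the host of the neuronal miRNA miR-124, had 59.7, 15.3 and 4.03 across AVE0991 libraries a to c, against 63.8, 43.0 and 67.0 across model libraries a to c. AVE0991 library a alone lay within the model range of Mir3078, and its log2 fold change of -1.07 ± 0.78 (SE; adjusted p = 0.401, edgeR) became -2.53 without that library (adjusted p = 0.0646, edgeR). Mir92-1, inside the Mir17hg host known for driving cell proliferation, had a log2 fold change of -0.42 ± 0.46 (SE). Mir182, in the span of the host of a miRNA cluster known from sensory organs, had one of 0.18 ± 0.22 (SE).

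**Figure D3:**
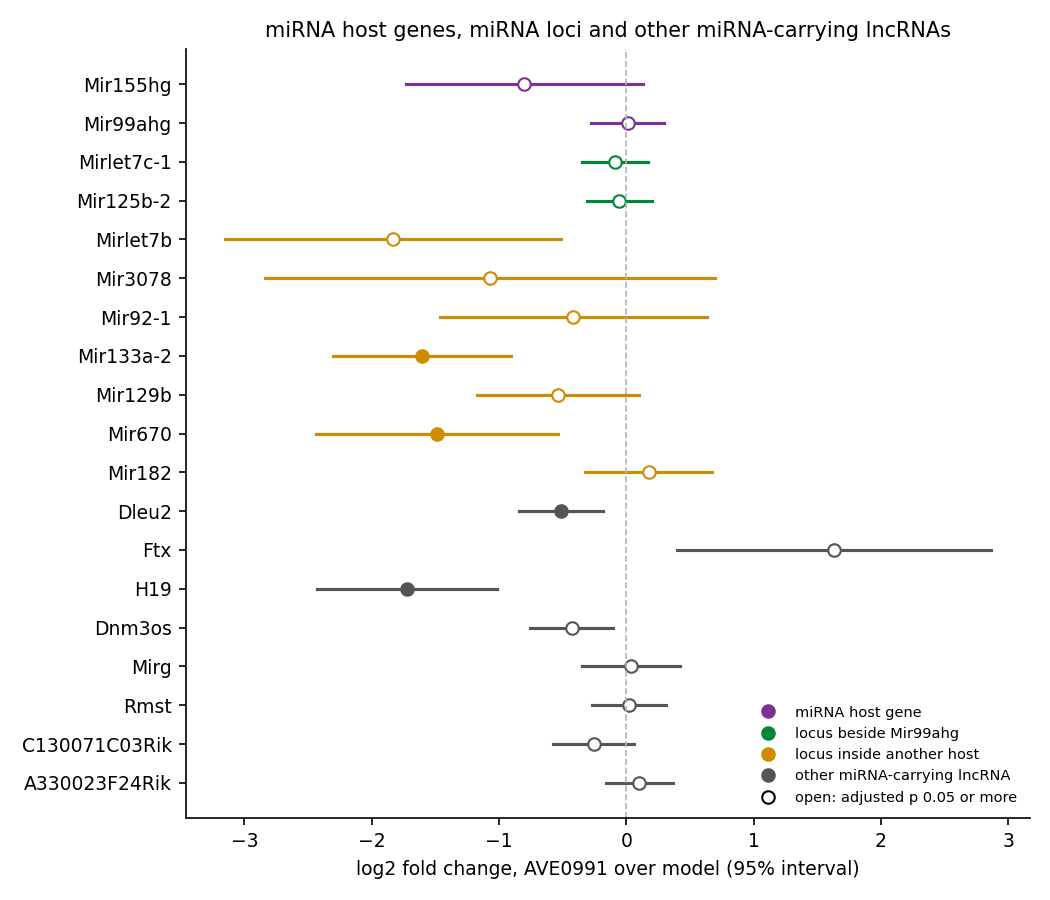
Log2 fold change, AVE0991 over model (x axis), with its 95% interval, for the miRNA host genes, the loci beside Mir99ahg, the tested loci inside other host genes and the tested lncRNAs of the list of other miRNA carriers. Filled points passed the edgeR test (adjusted p under 0.05) and open points did not. Lincmd1 is left out because its fold change has no firm size. Mir155hg lies at -0.80 with a wide interval and Mir99ahg at 0.01 with a narrow one.

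Other long non-coding RNAs carry miRNAs under symbols that do not end in hg, and 17 such symbols were listed. Of these, 11 were among the named RNAs and 9 were tested: 3 fell (Dleu2, H19 and Lincmd1), none rose and 6 did not pass. Their median log2 fold change was -0.26 against -0.02 over all names. In either direction 33.3% were called, against 16.1% of all names, and 33.3% fell, against 8.32%. The list was written with the values of H19 and Lincmd1 already known, so its count is no independent evidence. Meg3 and Lncpint lay above a mean of 50000, the highest level at which counts were solved, and were not tested by edgeR. For them the authors' deposited table gives log2 fold changes of 0.029 and 0.24, with p-values of 0.939 and 0.304 by its statistic. The share and median above do not include them.

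Dleu2, the host of miR-15a and miR-16-1, had normalized counts of 3170, 2961 and 3159 across AVE0991 libraries a to c, against 3987, 4541 and 5239 across model libraries a to c. Its groups did not overlap, and its log2 fold change was -0.52 ± 0.15 (SE; adjusted p = 0.0448, edgeR). That call held without model library a and was lost in the other 5 fits with 1 library left out. Mir16-1, the locus inside it, had 2400, 2163 and 2694 across AVE0991 libraries a to c, against 2725, 3159 and 3467 across model libraries a to c. Its groups did not overlap either, but its log2 fold change of -0.31 ± 0.15 (SE; adjusted p = 0.197, edgeR) did not pass.

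H19, the imprinted RNA that carries miR-675, had normalized counts of 124, 105 and 60.5 across AVE0991 libraries a to c, against 320, 267 and 405 across model libraries a to c. The groups did not overlap, and the log2 fold change was -1.72 ± 0.31 (SE; adjusted p = 0.00942, edgeR). Lincmd1, a muscle RNA that carries miR-133b and miR-206, had 3 counts in all in the AVE0991 libraries and 174 in the model libraries. The ratio of AVE0991 to model was 0.0201, with an exact 95% Poisson interval from 0.00411 to 0.0598 for counting error only. All 3 counts lay in AVE0991 library b, and the difference passed (adjusted p = 0.00884, edgeR). Lincmd1 and Mir133a-2 thus both fell, and each belongs to a host of miR-133 genes, a link noticed after their values were seen.

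Dnm3os, the host of miR-199a-2 and miR-214, had normalized counts of 1737, 1913 and 2002 across AVE0991 libraries a to c, against 2249, 2750 and 2879 across model libraries a to c. Its log2 fold change was -0.43 ± 0.14 (SE; adjusted p = 0.0789, edgeR), and that of Mir214 inside it was -0.76 ± 0.24 (SE; adjusted p = 0.0608, edgeR). Neither passed in the fit of all 6 libraries. Without model library a, Dnm3os passed (adjusted p = 0.0240, edgeR). Ftx, of the X inactivation centre, was the only listed RNA with a large positive value, at 1.63 ± 0.54 (SE; adjusted p = 0.0770, edgeR). It had 41.3, 58.2 and 30.2 normalized counts across AVE0991 libraries a to c, against 7.39, 17.0 and 18.7 across model libraries a to c. The groups of Ftx, Dnm3os and Mir214 did not overlap, and DESeq2 called Ftx and Dnm3os (adjusted p = 0.0449 and 0.0459).

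The other 4 tested carriers were near level or did not pass. Rmst, an RNA known for promoting neurogenesis, had a log2 fold change of 0.02 ± 0.13 (SE). Mirg, the miRNA-bearing RNA of the Dlk1-Dio3 imprinted region, had one of 0.04 ± 0.17 (SE). A330023F24Rik, the host of miR-29b-2 and miR-29c, and C130071C03Rik, a host of miR-9, had log2 fold changes of 0.10 ± 0.12 and -0.26 ± 0.14 (SE). The groups of C130071C03Rik did not overlap, whereas those of Rmst, Mirg and A330023F24Rik did. Of all names tested, 39.0% had groups that do not overlap.

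Taking instead every named RNA that RefSeq lists as a lncRNA with a miRNA gene in its span, a set chosen after seeing the data, gave 25 RNAs, 23 of them tested. Of these, 4 fell, none rose and 19 did not pass. In either direction 17.4% were called, against 16.1% of all names, and 17.4% fell, against 8.32%. The additional RNA was A230057D06Rik, with a log2 fold change of -0.71 ± 0.19 (SE; adjusted p = 0.0372, edgeR). Its normalized counts were 1967, 1861 and 1786 across AVE0991 libraries a to c, against 2403, 3229 and 3863 across model libraries a to c. The Mir344 loci in its span had log2 fold changes of -0.65 ± 0.18 for Mir344, which passed (adjusted p = 0.0457, edgeR), -0.39 ± 0.18 for Mir344b and -0.55 ± 0.33 for Mir344c (SE), which did not. Without model library a, Mir344b passed as well (adjusted p = 0.0403, edgeR). Copies of the miR-344 family resemble each other, so reads may have been split among them. Both calls, of A230057D06Rik and of Mir344, held without model library a and were lost in the other 5 fits that left out 1 library. Over all names as well, most calls came without model library a (419) and fewer in those 5 fits (104 to 160). E130102H24Rik and the Mir101a locus in its span had values of opposite sign, 0.15 ± 0.63 and -0.41 ± 0.14 (SE), and neither passed. The groups of Mir101a did not overlap, and those of E130102H24Rik did. The value of E130102H24Rik turned to -0.21 with limma-voom.

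**Figure D4:**
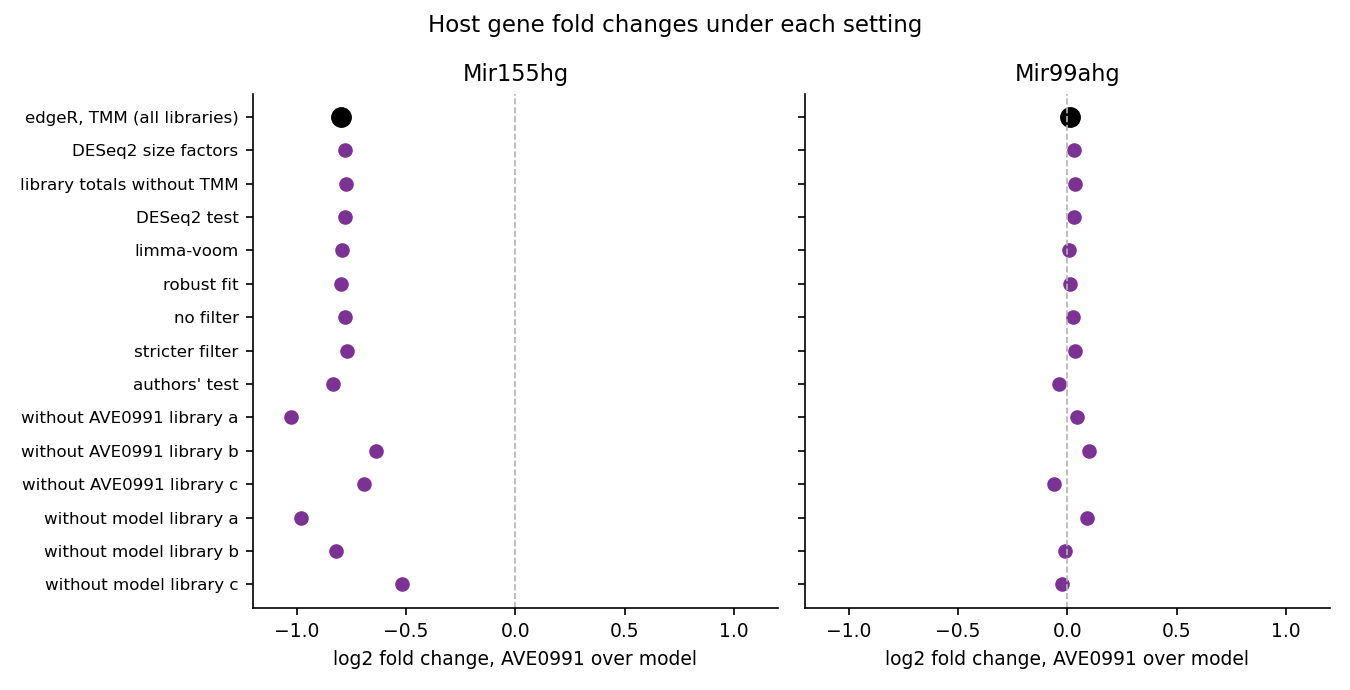
Log2 fold change, AVE0991 over model (x axis), of Mir155hg and Mir99ahg under each setting (rows): the edgeR fit of all libraries (large black point), other scalings, tests and filters, and fits without 1 library. Mir155hg lies between -1.03 and -0.52 in every row and Mir99ahg between -0.062 and 0.10.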

How the data were processed

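The labels' protocols name TRIzol extraction of total RNA, FastQC 0.11.8 and fastp 0.19.5. The submitters' processing notes list STAR 2.7.7a, the build mm9 and DESeq2 1.10.1. Which counter, annotation and strand setting the authors chose is not stated there. The authors deposited counts per NONCODE identifier, with totals between 37036986 and 52029003 per library; these carry no names and give depth only.

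The authors' deposited named table gives, by its file header, 1 mean signal for AVE and 1 for model, the fold ratio and its log2, and a test score (statistic, degrees of freedom) with its p-value. The signal is counts over size factors, so whole counts were solved from means, statistic and degrees of freedom (relative tolerances 1e-09 and 1e-06). Of 2247 names with a value, 2235 (99.47%) had 1 solution, 4 had several and 8 lay above a mean of 50000, so these 12 were not tested; 35 names were 0 throughout. The steps were tested on simulated data.

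The test was edgeR 4.0.16 (TMM, filterByExpr, R 4.3.3), with the SE taken as fold change over the square root of F. Alternatives were other scalings and filters, robust fitting, DESeq2 1.42.0, limma-voom 3.58.1, the authors' statistic and each library left out. Intervals on counts cover counting error only. The members, lists and tests were chosen with earlier results of these data known. The rule for named genes took all hosts, their loci and the listed carriers; Morrbid, loci in other hosts, further let-7 loci, the RefSeq-span set and the ratios were added after seeing the data. Symbols were matched to RefSeq GRCm38.p6 (2270 of 2282). Coordinates are not printed because builds differ, and spans were compared by position without strand.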

Additional observations from a re-analysis of the deposited data

How the results depend on the processing

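Mir155hg passed in 0 of 14 alternatives, as did Mir99ahg, and calls among the host genes and the cluster loci stayed at 0 throughout, leave-one-library-out fits included (lowest and highest 0). At an unadjusted p under 0.05 (edgeR), 1 of 2 host genes was counted without AVE0991 library a and 1 of 2 without model library a. Over all names these fits gave 517 of 1919 and 660 of 1905. Mir155hg ran from -1.03 to -0.52 (log2) with 1 library left out. The signs of values near 0 turned: with the authors' statistic, Mir99ahg was -0.041, Mirg -0.014 and Rmst -0.030, and with limma-voom E130102H24Rik was -0.21; the cause was not tested. Leaving out 1 library gave -0.062 to 0.10 for Mir99ahg, -0.11 to 0.0063 for Mir125b-2, -0.086 to 0.15 for Mirg, -0.018 to 0.091 for Rmst, -0.14 to 0.63 for E130102H24Rik and -0.21 to 0.23 for Morrbid. Of the 9 listed carriers, 5 passed with DESeq2 and 0 with the authors' statistic, against 3 with edgeR, and 2 to 4 with 1 library left out; the cause was not tested. Of the loci inside other host genes, 3 passed with DESeq2 and with the stricter filter (Mirlet7b added) and 0 with the authors' statistic, against 2; 1 passed in the fits without AVE0991 library a, AVE0991 library c, model library b and model library c (Mir133a-2). Over all names, DESeq2 called 401 and limma-voom 342, against 300 with edgeR. The authors' statistic gave 0, with 424 at an unadjusted p under 0.05. With 1 library left out, 104 to 419 were called (104 without model library b, 107 without model library c, 419 without model library a). The calls of Dleu2 and Mir344 were also lost with DESeq2 size factors, library totals or no filter (adjusted p = 0.0519, 0.0512 and 0.0507 for Dleu2 and 0.0531, 0.0512 and 0.0509 for Mir344, edgeR). No paired analysis was possible because the recovered libraries carry no replicate number. Mir155hg had 27 to 96 counts per library and Mir99ahg 7764 to 10628, and how far depth limits either was not tested.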
